A study of Homo sapiens with 4 samples.

Results

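The mRNAs of 9 enzymes and enzyme subunits at the centre of mitochondrial carbon metabolism were followed in papillary thyroid carcinoma cells after knockdown of LDHA: citrate synthase (CS), the NADP-dependent isocitrate dehydrogenases of the cytosol (IDH1) and of the mitochondrion (IDH2), the 3 subunits of the NAD-dependent isocitrate dehydrogenase (IDH3A, IDH3B and IDH3G), the E1 and E2 subunits of the 2-oxoglutarate dehydrogenase complex (OGDH and DLST) and fumarase (FH). The genes were taken by symbol for their place in the cycle. Each stood on 1 row of the table, which held 58857 usable named rows, and all 9 were among the 13291 rows that reached at least 0.5 FPKM in at least 2 libraries. The cells were B-CPAP, an established human papillary thyroid carcinoma line, in 2 libraries with a hairpin against LDHA (shLDHA) and 2 libraries with a hairpin against GFP (shGFP). In the study's methods the LDHA hairpin was delivered by lentivirus and infected cells were selected with puromycin. How the GFP hairpin was delivered is not stated there. By the labels both groups carry a hairpin, so neither group is an untouched parental line. The labels do not say whether libraries of a group came from separate cultures or carried the same LDHA hairpin, and the p-values here therefore cover the scatter among 4 libraries, a scatter that may be technical.

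The TCA cycle joins acetyl groups to oxaloacetate and oxidises the resulting citrate in steps that give NADH and succinate, and succinate is carried on to fumarate and malate. Isocitrate is oxidised to 2-oxoglutarate by 3 separate enzymes. IDH3 is the NAD-linked enzyme of the cycle itself, a complex of a catalytic alpha subunit (IDH3A) with beta and gamma subunits (IDH3B and IDH3G) that take part in its regulation, whereas IDH1 and IDH2 are NADP-linked homodimers that can also run in reverse. LDHA, the subunit of lactate dehydrogenase targeted here, turns pyruvate into lactate and so competes with the mitochondrion for pyruvate.

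LDHA stood at 176 and 168 FPKM in the shLDHA libraries, against 1186 and 1183 FPKM in the shGFP libraries, all as deposited. Its log2 fold change was -2.79 as deposited (limma adjusted p = 0.016). After the TMM scaling described below it was -2.44 with a standard error of 0.08 (limma adjusted p = 0.0076). Between the 4 libraries the FPKM totals ranged from 996249 to 1144490, and the depth, read from the steps between low FPKM of single-exon genes, from about 18500000 to about 28100000 fragments. Library 2 of shLDHA stood apart, with 3.53% of its FPKM on rows with no gene name, against 0.36% to 0.44% in the others. In that library 71.1% of low values came within 0.15 of whole fragments, against 83.2% to 83.3% in the others. As deposited, the median tested gene was lower in the shLDHA libraries by a log2 difference of -0.33. TMM scaling, which sets the bulk of genes equal between libraries, left a median of -0.0040, so changes below are relative to the bulk of genes unless they are called deposited. Of 8 thyroid follicular markers, PAX8 and FOXE1 were expressed, while NKX2-1 and TSHR were at 0 FPKM and TG at most at 0.12 FPKM in all 4 libraries. After TMM scaling the 8 summed to 99.6 and 82.6 FPKM in the shLDHA libraries, against 92.6 and 92.2 FPKM in the shGFP libraries, which overlapped. Most of that sum was PAX8, at 96.9 and 79.5 FPKM in the shLDHA libraries, against 87.8 and 86.9 FPKM in the shGFP libraries. FOXE1 was lower, with 2.66 and 3.09 FPKM in the shLDHA libraries, against 4.73 and 5.20 FPKM in the shGFP libraries. Its log2 fold change was -0.77 (limma adjusted p = 0.029). Of 6 epithelial markers, KRT7, KRT8 and KRT18 were expressed while CDH1, EPCAM and KRT19 were each at most at 0.20 FPKM. After TMM scaling the 6 summed to 860 and 859 FPKM in the shLDHA libraries, against 779 and 758 FPKM in the shGFP libraries, without overlap. KRT7, KRT8 and KRT18 did not pass, with a limma adjusted p of 0.096, 0.80 and 0.059. Of 5 leukocyte markers, only CD68, a lysosomal protein, was expressed, and PTPRC and CD3E were at 0 FPKM. CD68 had 47.2 and 41.3 FPKM after TMM scaling in the shLDHA libraries, against 26.8 and 26.7 FPKM in the shGFP libraries, at a log2 fold change of 0.72 (limma adjusted p = 0.014). In bulk RNA, a smaller share of cells with a transcript and less of it per cell cannot be told apart.

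IDH2, the mitochondrial NADP-dependent enzyme, was the member with the largest log2 fold change after LDHA knockdown, and IDH1, its cytosolic counterpart, did not pass the test. IDH2 had 207 and 176 FPKM in the shLDHA libraries, against 101 and 98.9 FPKM in the shGFP libraries, all as deposited. Both shLDHA libraries lay well above both shGFP libraries before any scaling. After TMM scaling IDH2 averaged 215 ± 2.74 FPKM in shLDHA cells and 88.9 ± 1.04 FPKM in shGFP cells (SD, n = 2 each). The rise was 2.41-fold (95% interval 2.14 to 2.73), a log2 fold change of 1.27 with a standard error of 0.07 (limma adjusted p = 0.0076). Of the 13291 rows tested, 703 had a larger log2 fold change. The gene lies at chr15:90626277-90645709 on the minus strand (GRCh37, GENCODE annotation). IDH1 had 16.4 and 13.8 FPKM in the shLDHA libraries, against 18.1 and 18.5 FPKM in the shGFP libraries as deposited, where both shLDHA libraries were the lower. After TMM scaling IDH1 averaged 16.9 ± 0.38 FPKM in shLDHA cells and 16.3 ± 0.34 FPKM in shGFP cells (SD, n = 2 each), with a log2 fold change of 0.05 (95% interval -0.18 to 0.28, limma adjusted p = 0.65), which turned to -0.29 in the deposited values (limma adjusted p = 0.19). A smaller change in either direction would not be detectable within that interval, so IDH1 is not shown to be unchanged.

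The balance between the isoforms can be read within each library, where scaling between libraries does not enter. The ratio of IDH2 to IDH1 FPKM was 12.6 and 12.8 in the shLDHA libraries, against 5.59 and 5.34 in the shGFP libraries. The ratios of each group lay close together and the groups did not overlap. On the log2 scale the ratio averaged 3.67 ± 0.01 in shLDHA cells and 2.45 ± 0.05 in shGFP cells (SD, n = 2 each), a 2.33-fold difference. IDH2 made up 92.7% and 92.7% of the summed FPKM of IDH1 and IDH2 in the shLDHA libraries, against 84.8% and 84.2% in the shGFP libraries. An exact permutation test of a single value with 2 libraries against 2 cannot give a two-sided p below 0.333, and the IDH2 to IDH1 ratio gave that smallest p, as did 3 other ratios of the 5 compared, so the ratios are given as a description. The IDH2 transcript is 2658 bases long, and the median log2 fold change of genes of similar length (1 of 10 equal bins) was 0.01. Its call was lost without shGFP library 1 (limma adjusted p = 0.14) or shGFP library 2 (limma adjusted p = 0.13), in fits where none of the 13291 rows passed and 3419 and 3693 rows had an unadjusted p under 0.05, while the log2 fold change stayed at 1.28 and 1.26.

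**Figure D1:**
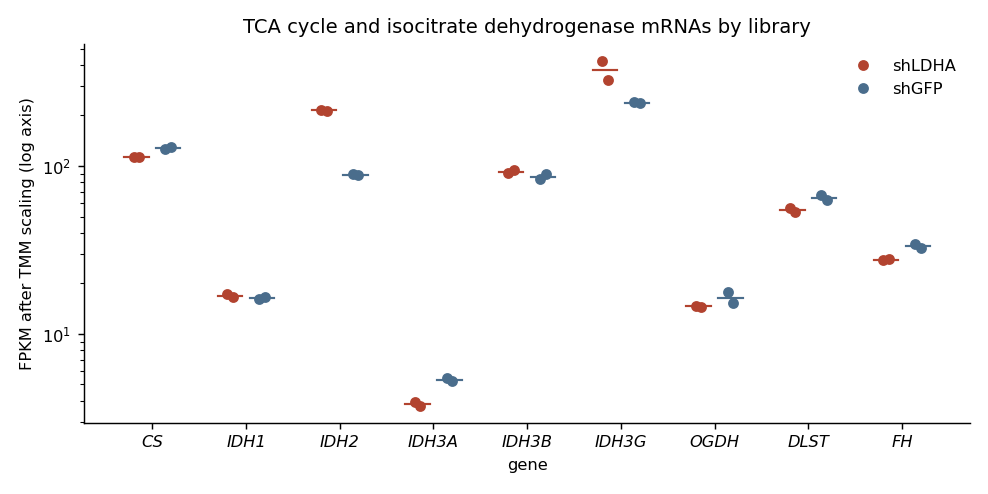
FPKM after TMM scaling (log axis) of the 9 mRNAs in the 2 shLDHA libraries (red) and the 2 shGFP libraries (blue); each point is a library and each line the mean of its group. IDH2 lies at 217 and 213 FPKM in the shLDHA libraries, against 89.7 and 88.2 FPKM in the shGFP libraries, IDH3G is the member whose shLDHA libraries stand furthest apart, and IDH3A is the lowest member in every library.

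The 3 genes of the IDH3 complex did not move alike: IDH3G rose after LDHA knockdown, IDH3A had a negative log2 fold change that missed the threshold, and IDH3B lay between them. On GRCh37 the genes lie on 3 chromosomes, IDH3A at chr15:78423840-78464287 on the plus strand, IDH3B at chr20:2639041-2644865 and IDH3G at chrX:153051221-153059967 on the minus strand. IDH3A, the catalytic subunit, had 3.74 and 3.09 FPKM in the shLDHA libraries, against 6.14 and 5.84 FPKM in the shGFP libraries as deposited. Both shLDHA libraries were below both shGFP libraries, with or without scaling. After TMM scaling IDH3A averaged 3.83 ± 0.12 FPKM in shLDHA cells and 5.32 ± 0.15 FPKM in shGFP cells (SD, n = 2 each), with a log2 fold change of -0.46 (95% interval -0.81 to -0.12, limma adjusted p = 0.056). In the deposited values it was lower by -0.80 on the log2 scale (limma adjusted p = 0.032). IDH3B had 86.7 and 78.1 FPKM in the shLDHA libraries, against 94.1 and 100.1 FPKM in the shGFP libraries as deposited. After TMM scaling its order was reversed, at 92.7 ± 2.7 FPKM in shLDHA cells and 86.2 ± 4.31 FPKM in shGFP cells (SD, n = 2 each), and the log2 fold change was 0.10 (95% interval -0.10 to 0.31, limma adjusted p = 0.34), against -0.24 as deposited (limma adjusted p = 0.18).

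IDH3G, the gamma subunit, had 402 and 269 FPKM in the shLDHA libraries, against 271 and 264 FPKM in the shGFP libraries as deposited. The first shLDHA library stood apart, while the second lay between the shGFP libraries until scaling placed it above them. After TMM scaling IDH3G averaged 374 ± 66.8 FPKM in shLDHA cells and 238 ± 2.54 FPKM in shGFP cells (SD, n = 2 each), a 1.56-fold rise (95% interval 1.2 to 2.02) and a log2 fold change of 0.64 with a standard error of 0.14 (limma adjusted p = 0.034). This value moved to 0.46 without shLDHA library 1 and to 0.82 without shLDHA library 2. The call was lost in the deposited values, at a log2 fold change of 0.30 (limma adjusted p = 0.31), and with offsets fitted to level the trend over transcript length, at 0.25 (limma adjusted p = 0.30). The IDH3G transcript, 1335 bases long, falls in the bin of 1089 to 1626 bases, whose genes had a median log2 fold change of 0.35. Its exons overlap those of SSR4, a gene on the opposite strand that encodes a subunit of the translocon-associated protein complex, over 267 bases. SSR4 stood at 889 and 1151 FPKM in the shLDHA libraries, against 569 and 623 FPKM in the shGFP libraries. The sources used here do not state that counting used strand, so reads of IDH3G and SSR4 in that stretch cannot be told apart, and the part of SSR4 in the IDH3G value was not tested.

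Within each library, the subunit ratios differed between the groups. IDH3G to IDH3A was 107 and 87.2 in the shLDHA libraries, against 44.1 and 45.2 in the shGFP libraries, a 2.17-fold difference between the geometric means. IDH3B to IDH3A was 23.2 and 25.3 in the shLDHA libraries, against 15.3 and 17.1 in the shGFP libraries, a 1.49-fold difference. IDH3B to IDH3G was 0.216 and 0.290 in the shLDHA libraries, against 0.348 and 0.379 in the shGFP libraries. None of these ratios overlapped between the groups, and they are not independent, since each follows from the others. How often ratios of other gene pairs did not overlap was not computed. Of single rows, 36.4% had both shLDHA libraries above both shGFP libraries after TMM scaling and 36.1% below. The share of IDH3A in the summed FPKM of the 3 subunits was 0.760% and 0.881% in the shLDHA libraries, against 1.65% and 1.58% in the shGFP libraries. These shares rest on the transcript lengths the authors divided by, which are not given in the sources used here, and the annotated exons of IDH3A include a stretch of 2608 bases that overlaps ACSBG1, a gene at 0 FPKM in all 4 libraries. With length offsets, an alternative chosen after seeing the data, the difference fell to 1.08-fold for IDH3B over IDH3A and to 1.5-fold for IDH3G over IDH3A, whereas IDH3B over IDH3G was 0.72-fold, against 0.69-fold without offsets. IDH3A has a transcript of 4083 bases and IDH3B one of 1542 bases, so the ratios to IDH3A in particular moved with the correction for length.

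**Figure D2:**
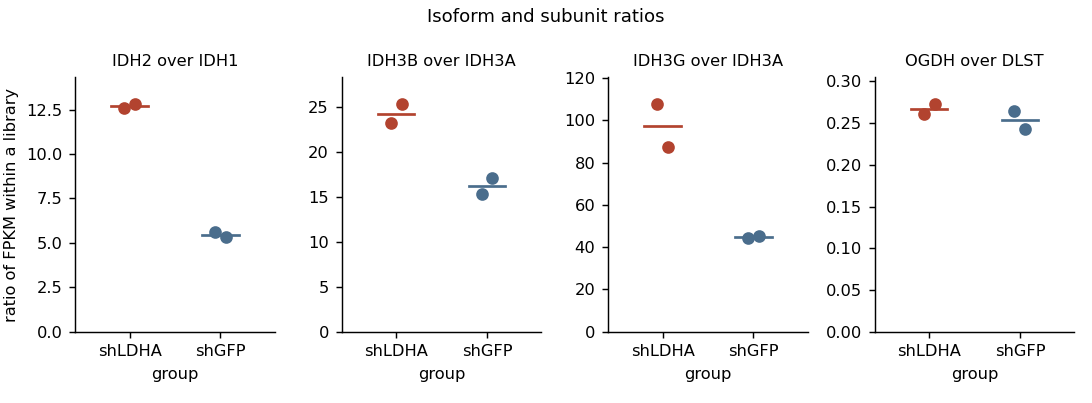
Ratio of FPKM between 2 genes within a library, for 4 pairs; each point is a library, each line the arithmetic mean of its group, and every axis starts at 0. IDH2 over IDH1 and both ratios to IDH3A are higher in the 2 shLDHA libraries than in the 2 shGFP libraries, while OGDH over DLST overlaps.

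The 250 bases before a RefSeq start of each IDH3 gene are shown because these subunits of 1 enzyme differed both in level and in change. They are RefSeq sequences on GRCh38.p14, at chr15:78149112-78149361 on the plus strand for IDH3A, chr20:2664217-2664466 on the minus strand for IDH3B and chrX:153794376-153794625 on the minus strand for IDH3G. Each runs from 5′ to 3′ along the gene, and capitals mark matches on either strand to GGGCGG (the GC box of SP1), CCAAT (the box of NF-Y), CCGGAAG (a core of ETS factors) and TGCGCA (part of the palindrome of NRF1, a regulator of genes for mitochondrial proteins).
IDH3A: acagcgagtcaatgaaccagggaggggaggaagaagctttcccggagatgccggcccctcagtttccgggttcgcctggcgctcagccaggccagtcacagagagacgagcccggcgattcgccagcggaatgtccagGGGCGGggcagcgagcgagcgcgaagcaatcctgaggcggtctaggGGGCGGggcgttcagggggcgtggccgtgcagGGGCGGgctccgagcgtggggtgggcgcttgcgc
IDH3B: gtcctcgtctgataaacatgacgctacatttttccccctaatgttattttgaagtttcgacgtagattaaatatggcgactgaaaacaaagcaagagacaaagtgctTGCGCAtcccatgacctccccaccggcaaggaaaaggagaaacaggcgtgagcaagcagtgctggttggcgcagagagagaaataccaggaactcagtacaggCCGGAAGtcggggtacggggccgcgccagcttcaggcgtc
IDH3G: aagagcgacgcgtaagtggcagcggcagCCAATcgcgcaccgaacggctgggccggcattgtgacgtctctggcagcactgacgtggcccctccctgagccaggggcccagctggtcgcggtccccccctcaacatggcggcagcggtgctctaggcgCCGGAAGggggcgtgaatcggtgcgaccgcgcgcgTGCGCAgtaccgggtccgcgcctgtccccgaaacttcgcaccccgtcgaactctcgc
IDH3B and IDH3G each hold 1 CCGGAAG and 1 TGCGCA, to which IDH3G adds 1 CCAAT, and IDH3A holds neither but has 3 GC boxes. Of 35116 promoter windows of the same length, 8.52% held CCGGAAG, 6.89% TGCGCA, 42.6% the GC box and 32.0% CCAAT. The motifs were chosen after the values had been seen, and a match or its absence describes these letters in this window only. A RefSeq start can differ from the end of the GENCODE gene span given above. Of the 9 genes, 8 had an entry in the promoter table, and OGDH had none.

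CS, OGDH, DLST and FH all had negative log2 fold changes, and none passed the threshold after TMM scaling. CS, which condenses acetyl-CoA with oxaloacetate, had 107 and 93.1 FPKM in the shLDHA libraries, against 142 and 146 FPKM in the shGFP libraries as deposited. It averaged 113 ± 0.18 FPKM in shLDHA cells and 128 ± 3.34 FPKM in shGFP cells after TMM scaling (SD, n = 2 each), with a log2 fold change of -0.18 (95% interval -0.36 to -0.0015, limma adjusted p = 0.11). FH, which hydrates fumarate to malate, had 26.2 and 23.1 FPKM in the shLDHA libraries, against 38.7 and 36.6 FPKM in the shGFP libraries as deposited. After TMM scaling FH averaged 27.7 ± 0.36 FPKM in shLDHA cells and 33.4 ± 1.1 FPKM in shGFP cells (SD, n = 2 each). Its log2 fold change was -0.27 (95% interval -0.48 to -0.06, limma adjusted p = 0.062), and it was the only one of the 9 genes that came to pass in the direction of lower with length offsets, at -0.52 (limma adjusted p = 0.015).

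OGDH and DLST belong to the same complex, which turns 2-oxoglutarate into succinyl-CoA. OGDH had 14.1 and 12.0 FPKM in the shLDHA libraries, against 19.96 and 17.1 FPKM in the shGFP libraries as deposited, with a log2 fold change after TMM scaling of -0.17 (95% interval -0.46 to 0.13, limma adjusted p = 0.29). DLST had 53.9 and 43.99 FPKM in the shLDHA libraries, against 75.5 and 70.5 FPKM in the shGFP libraries as deposited, with a log2 fold change after TMM scaling of -0.24 (95% interval -0.45 to -0.03, limma adjusted p = 0.082). For both genes the 2 shLDHA libraries lay below the 2 shGFP libraries, as for 52.8% of all tested rows as deposited and 36.1% after TMM scaling. Their ratio, OGDH over DLST, was 0.261 and 0.272 in the shLDHA libraries, against 0.264 and 0.243 in the shGFP libraries, and was the only one of the 5 ratios whose groups overlapped (exact permutation p = 0.667, two-sided). DLD, the E3 subunit that this complex shares with pyruvate dehydrogenase, had 3.61 and 4.28 FPKM in the shLDHA libraries, against 10.9 and 7.08 FPKM in the shGFP libraries as deposited, at a log2 fold change after TMM scaling of -0.81 (limma adjusted p = 0.091); it was singled out after its values were seen.

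Counted over the 9 genes, after TMM scaling 2 rose (IDH2 and IDH3G), 0 fell and 7 did not pass, with the threshold at 0.05 for the limma adjusted p, while 4 genes (IDH3A, FH, DLST and CS) had an unadjusted p under 0.05 in the direction of lower. Among all tested rows 18.1% rose and 12.9% fell by the same test, so 2 of 9 is near the background. An unadjusted limma p under 0.05 was reached by 25.2% of all rows in the direction of higher and by 21.4% in the direction of lower. Both shLDHA libraries lay above both shGFP libraries for 4 of the 9 genes and below them for 5, against 36.4% and 36.1% of all tested rows. In the deposited values 1 gene lay above (IDH2), 7 lay below and 1 overlapped (IDH3G), against 20% above and 52.8% below over all tested rows. The median log2 fold change of the 9 genes was -0.17, against -0.0040 over all tested rows. In the deposited values 1 gene was higher (IDH2) and 4 were lower (FH, IDH3A, CS and DLST), against 6.8% higher and 23.4% lower over all tested rows. The same genes passed with upper quartile scaling, where the shares over all rows were 14.3% and 18.5%. With equal library totals 1 gene was higher and 5 were lower, against 4.57% and 34% of all rows, and with length offsets 1 was higher and 1 lower, against 15.6% and 13.1%. IDH2 was the member called in the same direction under each scaling tried, with log2 fold changes between 0.75 and 1.27. All genes together showed a trend with transcript length (Spearman's rho of -0.41 for 11846 genes, a description since genes are not replicates) and with GC content (rho 0.40). The median log2 fold change of genes of similar length was -0.18 for IDH3A and OGDH, 0.19 for FH and 0.35 for IDH3B. The IDH2 and IDH3G transcripts have a GC content of 55.5% and 59.0%, against 41.8% for IDH1 and 43.4% for IDH3A, and the part of GC content in these results was not tested.

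**Figure D3:**
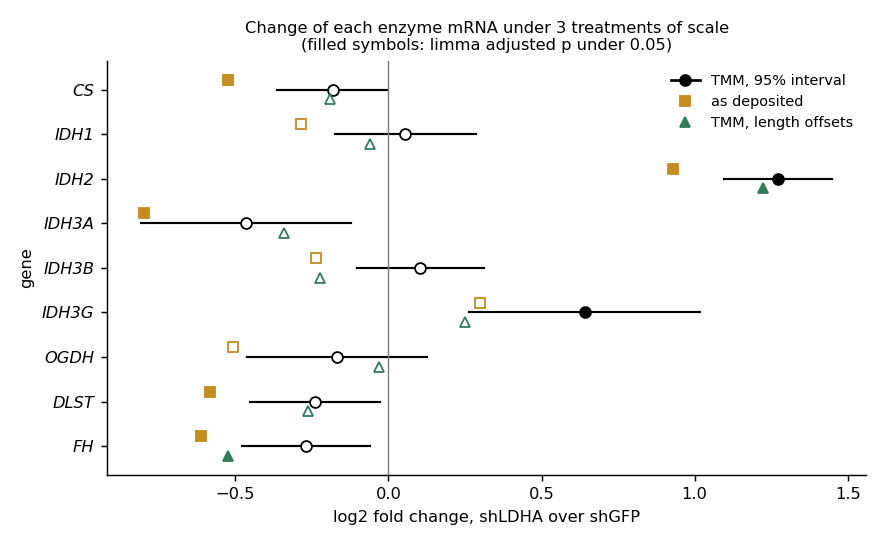
Log2 fold change of each gene, shLDHA over shGFP, with TMM scaling (circles, with the 95% interval as a line), in the values as deposited (squares) and with TMM scaling and length offsets (triangles); filled symbols passed a limma adjusted p under 0.05. IDH2 is filled and positive under all 3, at 1.27, 0.93 and 1.22, IDH3G is filled only with TMM scaling, and IDH1 and IDH3B lie on different sides of 0.

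By level, the 9 mRNAs spanned a wide range, with IDH3G the highest and IDH3A the lowest in both groups. After TMM scaling the order in shLDHA cells was IDH3G, IDH2, CS, IDH3B, DLST, FH, IDH1, OGDH and IDH3A, with means from 374 to 3.83 FPKM. In shGFP cells it was IDH3G, CS, IDH2, IDH3B, DLST, FH, OGDH, IDH1 and IDH3A, with means from 238 to 5.32 FPKM. IDH2 thus stood above CS in shLDHA cells and below it in shGFP cells. Between neighbours, no libraries overlapped in shLDHA cells, while in shGFP cells those of IDH2 and IDH3B and those of OGDH and IDH1 did, so these places in the order are not separated there. The share of IDH2 in the summed FPKM of the 9 genes was 22.6% and 24.7% in the shLDHA libraries, against 13.2% and 13.0% in the shGFP libraries, and that of CS was 11.7% and 13.1% in the shLDHA libraries, against 18.5% and 19.3% in the shGFP libraries. The sum itself was 918 and 712 FPKM in the shLDHA libraries, against 767 and 758 FPKM in the shGFP libraries as deposited.

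Among the 12 other enzymes and subunits of the cycle, 11 were tested, 2 rose, 1 fell and 8 did not pass, against 18.1% higher and 12.9% lower over all tested rows. Their median log2 fold change was 0.25, against -0.0040 over all tested rows. The count was 1 higher and 3 lower as deposited, against 6.8% and 23.4% of all tested rows. It was 0 and 4 with equal library totals, against 4.57% and 34%, and 0 and 3 with length offsets, against 15.6% and 13.1%. OGDHL, a relative of OGDH, was at 0 FPKM in all 4 libraries and was not tested. SDHD, a membrane anchor of succinate dehydrogenase, averaged 35.1 ± 2.66 FPKM in shLDHA cells and 25.5 ± 0.33 FPKM in shGFP cells (SD, n = 2 each, after TMM scaling), at a log2 fold change of 0.46 (limma adjusted p = 0.028). It did not pass in the deposited values (log2 fold change 0.12), and its value was -0.063 with equal library totals. MRPS36, a small protein that tethers E3 to the 2-oxoglutarate dehydrogenase complex, had 5.48 and 9.47 FPKM in the shLDHA libraries, against 3.51 and 3.17 FPKM in the shGFP libraries as deposited. After TMM scaling its log2 fold change was 1.42 (limma adjusted p = 0.046). That value was 1.92 without shLDHA library 1 and 0.93 without shLDHA library 2. SUCLG1, the alpha subunit of succinyl-CoA synthetase, fell to 56.1 ± 0.16 FPKM in shLDHA cells, against 67.4 ± 0.33 FPKM in shGFP cells (SD, n = 2 each), at a log2 fold change of -0.26 (limma adjusted p = 0.048). The calls of MRPS36 and SUCLG1 lay at the threshold, and with no variance trend they had a limma adjusted p of 0.074 and 0.12.

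Of 5 genes that handle citrate and malate in or towards the cytosol, 2 rose and 0 fell, with a median log2 fold change of 0.11, where 18.1% of all tested rows rose and 12.9% fell. With equal library totals 1 was higher and 2 were lower, against 4.57% and 34% of all tested rows. After TMM scaling none of the 5 had an unadjusted p under 0.05 in the direction of lower (limma), against 21.4% of all tested rows. As deposited 2 of them did, against 4693 of the 13291 tested rows. SLC25A1, the carrier that exports citrate from the mitochondrion, had 254 and 243 FPKM in the shLDHA libraries, against 100.01 and 104 FPKM in the shGFP libraries as deposited. Both shLDHA libraries lay far above both shGFP libraries, and the log2 fold change after TMM scaling was 1.63 (standard error 0.08, limma adjusted p = 0.0076), or 1.28 as deposited (limma adjusted p = 0.018). MDH1, the cytosolic malate dehydrogenase, averaged 82.0 ± 1.59 FPKM in shLDHA cells and 61.8 ± 1.35 FPKM in shGFP cells (SD, n = 2 each, after TMM scaling), at a log2 fold change of 0.41 (limma adjusted p = 0.021), but at 0.06 as deposited (limma adjusted p = 0.73) and -0.11 with equal library totals.

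Of 10 genes by which carbon enters or leaves the cycle, 2 rose and 0 fell, against 18.1% higher and 12.9% lower over all tested rows. Their median log2 fold change was -0.30. An unadjusted p under 0.05 in the direction of lower (limma) was reached by 4 of them, and by 21.4% of all tested rows. With equal library totals 0 were higher and 6 lower, against 4.57% and 34% of all tested rows. PC, which carboxylates pyruvate to oxaloacetate, averaged 17.2 ± 2.07 FPKM in shLDHA cells and 10.3 ± 0.28 FPKM in shGFP cells (SD, n = 2 each, after TMM scaling), at a log2 fold change of 0.72 (limma adjusted p = 0.020). PCK2, which turns oxaloacetate into phosphoenolpyruvate in the mitochondrion, averaged 83.6 ± 1.45 FPKM in shLDHA cells and 63.1 ± 5.33 FPKM in shGFP cells (SD, n = 2 each), at a log2 fold change of 0.41 (limma adjusted p = 0.034). Its call was lost whichever library was left out, at log2 fold changes of 0.32 to 0.49. Without a shGFP library no gene passed, so only the fits without a shLDHA library could have kept the call. In the deposited values 0 of these 10 genes were higher and 4 were lower, against 6.8% and 23.4% of all tested rows. PC was at 0.38 there (limma adjusted p = 0.18) and PCK2 at 0.07 (limma adjusted p = 0.72).

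**Figure D4:**
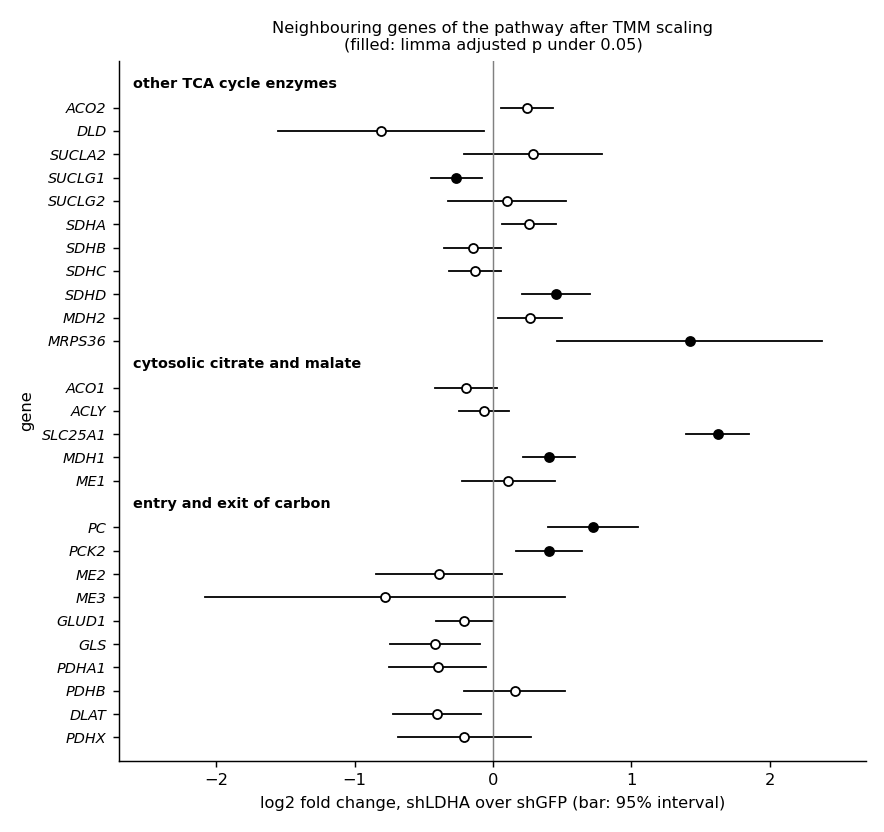
Log2 fold change after TMM scaling, shLDHA over shGFP, of the tested genes of 3 neighbouring lists, with the 95% interval as a line; filled circles passed a limma adjusted p under 0.05. SLC25A1 has a log2 fold change of 1.63, SUCLG1 is the only filled circle to the left of 0, and the intervals of ME3, MRPS36 and DLD are the widest.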

How the data were processed

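Reads were trimmed with Trim Galore. For alignment the study's methods give STAR on hg19, with HTSeq and GENCODE for counting, whereas the notes of the submitters list HISAT2 and hg38, and it is unclear which build the table follows. The authors deposited FPKM with 2 decimals, 1 column per library, under a label of counts. How lengths entered is not given in these sources.

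Of 59108 rows, 224 had no name and 27 carried a date in place of a symbol, and none of these was tested. Tested rows reached 0.5 FPKM in 2 or more libraries. They were scaled by an unweighted TMM (trimming 30% of M and 5% of A) and fitted as log2(FPKM + 0.1) in limma (version 3.58.1, R 4.3.3) with a variance trend, 2 residual degrees of freedom per gene and Benjamini-Hochberg adjustment over 13291 rows. This scale understates changes of low genes. Intervals are moderated 95% intervals from limma. Depths are approximate, since 71.1% to 83.3% of low values came within 0.15 of whole fragments, and no counts were tested. Transcript lengths, GC content and overlaps came by symbol from GENCODE 44 on GRCh37.

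The rule for genes described as results took the 9 members, LDHA and up to 4 called genes of each pathway list. Markers, genes that overlap members, pseudogenes, OGDHL and DLD were named outside it. Members and lists were chosen with earlier results of these data known. The fit was tested on simulated data. Alternatives were other scalings, pseudocounts and filters, no variance trend, each library left out, a replicate block and length offsets.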

Additional observations from a re-analysis of the deposited data

How the results depend on the processing

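Most calls among the members other than that of IDH2 moved with the scaling. As deposited, 904 rows were higher and 3114 lower in shLDHA libraries, against 2410 and 1709 after TMM scaling, and with equal library totals 608 and 4518, so that the share of higher calls depends on the scaling; without a filter on low values 998 rows were lower. Among the 9 genes, 1 was higher and 4 lower as deposited and with upper quartile scaling, 1 and 5 with equal library totals, 1 and 1 with length offsets, and 1 and 1 with the replicate block together with length offsets; 1 was higher with no filter or no variance trend. In each of these the higher gene was IDH2. Of the 33 tested pathway genes, 9 were called after TMM scaling (8 higher, 1 lower), 11 as deposited (3 higher, 8 lower), 14 with equal library totals (1 higher, 13 lower), 5 with no filter and 3 with no variance trend (all higher). Over all tested rows 18.1% were higher and 12.9% lower after TMM scaling, 6.8% and 23.4% as deposited, and 4.57% and 34% with equal library totals. With upper quartile scaling the shares were 14.3% and 18.5%, and with length offsets 15.6% and 13.1%. With no filter 1648 rows were higher and 998 lower of 22087 tested, and with no variance trend 1736 and 1529 of 13291. With the replicate block and length offsets 1886 rows were higher and 1449 lower of 11846 tested. Leaving out a library gave 0 to 2732 higher and 0 to 1759 lower rows, 0 to 2 members higher, and 0 to 15 pathway genes, with 0 wherever a shGFP library was left out and the spread came from the shLDHA pair alone.

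IDH1 turned to -0.29 as deposited, -0.070 with upper quartile scaling, -0.46 with equal library totals and -0.060 with length offsets, with or without the block. IDH3B turned to -0.24, -0.020, -0.42 and -0.22 in the same fits. With equal library totals SDHD turned to -0.063, MDH1 to -0.11 and PCK2 to -0.11, and with length offsets, with or without the block, BOLA3 turned to -0.011. The cause was not tested. IDH3B over IDH3A had a log2 difference of 0.43 with a pseudocount of 1, against 0.58. Leaving out a library gave 0.50 to 0.66 for that ratio, 1.18 to 1.25 for IDH2 over IDH1, 0.96 to 1.27 for IDH3G over IDH3A, -0.75 to -0.32 for IDH3B over IDH3G and 0.012 to 0.13 for OGDH over DLST. With length offsets, chosen after seeing the data, the log2 differences were 1.28 for IDH2 over IDH1, 0.12 for IDH3B over IDH3A, 0.59 for IDH3G over IDH3A and 0.23 for OGDH over DLST.

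The replicate numbers of the labels are not said to pair libraries, and the differences between libraries 1 and 2 correlated between the groups at r = 0.118 over 13291 rows. With the replicate block 2209 rows were higher and 1233 lower, IDH2 (limma adjusted p = 0.018) and IDH3G (limma adjusted p = 0.035) stayed called and SUCLG1 did not (limma adjusted p = 0.10); no other call of a named gene changed.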

Other observations

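The enzymes that oxidise 2-hydroxyglutarate, a side product of isocitrate dehydrogenases and malate dehydrogenases, formed a list of 3 genes, of which 1 rose and 0 fell (0 also at an unadjusted p under 0.05 in limma). Over all tested rows 18.1% rose and 12.9% fell, and 21.4% had an unadjusted p under 0.05 in the direction of lower (limma). D2HGDH, which oxidises the D form, had 11.7 and 13.0 FPKM in the shLDHA libraries, against 6.90 and 8.41 FPKM in the shGFP libraries as deposited. Its log2 fold change after TMM scaling was 1.03 (standard error 0.18, limma adjusted p = 0.023), and as deposited it was 0.69. With equal library totals it was 0.51 (limma adjusted p = 0.066). The median of the list was 0.62, against -0.0040 over all tested rows.

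The 4 genes for attaching lipoate, the cofactor that the DLST and DLAT proteins carry, had a median log2 fold change of 0.25, with 1 higher and 0 lower (0 also at an unadjusted p under 0.05 in limma). The shares over all tested rows were 18.1% higher and 12.9% lower, and 21.4% lower at an unadjusted p under 0.05 (limma). BOLA3, which helps to supply iron-sulfur clusters to the enzyme that makes lipoate, had 70.6 and 76.9 FPKM in the shLDHA libraries, against 64.9 and 60.7 FPKM in the shGFP libraries as deposited, at a log2 fold change after TMM scaling of 0.57 (standard error 0.13, limma adjusted p = 0.040) and of -0.011 with length offsets.

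IDH1-AS1, which is transcribed from the opposite strand at the start of IDH1 and shares 94 bases with its exons, had 0.89 and 3.24 FPKM in the shLDHA libraries, against 0 and 0.48 FPKM in the shGFP libraries as deposited. These values lie near the limit on low FPKM and were looked at after the values of IDH1 had been seen. DLSTP1, a processed copy of DLST, was at most at 0.17 FPKM and FHP1, a copy of FH, at 0 FPKM in all 4 libraries.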
